A study of Arabidopsis thaliana with 4 samples.

Results

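The TB plates numbered 50 and above are the later part of the TB probe series on an Arabidopsis thaliana tiling array that was hybridised with H3K27me3 chromatin. Members were chosen by name alone, as probes with a value whose name is TB, a plate number of at least 50, a row and a well. There are 4799 of them, on 50 plates of 96 wells, out of 21740 probes with a value on the whole array. The only member without a value is well 12 of row A on plate TB 55. The TB plates numbered 00 to 49, with 4800 probes, serve as the comparison and are called the earlier plates.

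Histone H3 trimethylated at lysine 27 was immunoprecipitated from 10-day Col-0 wild-type seedlings, and each immunoprecipitate was compared with its own input DNA on arrays with 2 colours. The seedlings were grown untreated for 10 to 11 days in liquid medium at 22 °C with 16 hours of light. All 4 arrays form 1 group of 2 immunoprecipitations, replicates I and II, each on a pair of arrays with the dyes exchanged. Whole seedlings mix many cell types, so a level is an average in which fewer marked cells and less mark per cell cannot be told apart. Nothing in the labels ties the replicates to separate cultures, and their spread may be technical.

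H3K27me3 is set by Polycomb repressive complex 2, whose catalytic subunits in Arabidopsis seedlings are CURLY LEAF and SWINGER. The mark lies on silenced genes, many of them regulators of development, and in plants it usually covers a transcribed region and stops near its ends rather than spreading over very large domains. LIKE HETEROCHROMATIN PROTEIN 1 binds the mark. Where neighbouring probes come from neighbouring DNA, a marked region shows as a run of raised values. The files pair no probe with a gene, a genome position or a sequence, so none is named or shown, and whether name order is genome order is not stated in the labels or the file.

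The deposited value of a probe behaves as a log ratio of unstated base, centring and direction. The high side is taken as the likely side of the immunoprecipitate, because the values are skewed to it. Both arrays of a dye exchange carry 1 shared value, so n = 2 throughout. Levels are in units of the deposited scale, relative to each replicate's median over all 21740 probes, and paired values are always given in the order replicate I, replicate II. A probe is called upper where both of its values are 1 unit or more, which is a 2-fold ratio only on a base 2 scale. Over the members Pearson's r of the replicates was 0.926 and Spearman's rho 0.805, a description across probes that are not independent. The pooled SD between a probe's paired values was 0.489 units for upper members and 0.267 units for the others. Replicate I was the higher for 96.8% of upper members, against 97.8% of the upper probes of the array. The SD of upper members thus includes a shift between the replicates shared by most of them.

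The first question was how much of the later TB series carried the mark. On plates 50 to 99, 689 of 4799 probes were upper (14.4%), against 16.2% of all probes of the array. On the earlier plates 1063 of 4800 were upper (22.1%). The array share includes both sets of TB plates, and the members lay nearer to it than the earlier plates did. In replicate I alone 22.0% of the members reached 1 unit and 31.2% of the earlier probes did. In replicate II alone the shares were 15.3% and 22.9%. The later plates thus held the smaller share in 2 of 2 replicates, with differences of -9.20 and -7.60 percentage points. With 2 replicates an exact sign-flip permutation test cannot give a two-sided p below 0.5, so neither this nor any other difference between the sets of plates was tested.

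Upper members averaged 2.40 and 1.78 units (mean 2.09 ± 0.44, SD between replicates, n = 2). Upper probes of the earlier plates averaged 2.41 and 1.78 units (mean 2.10 ± 0.45, SD between replicates, n = 2). The differences, members minus earlier plates, were -0.0144 and 0.0017 units and had opposite signs in the 2 replicates. Single upper members spread with an SD of 0.628 and 0.562 units. Among upper members 18.9% reached 3 units in replicate I, against 17.8% on the earlier plates. In replicate II, 2.47% of upper members and 2.54% of the earlier upper probes did. As upper probes are defined by a minimum, the rule sets part of their height.

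In limma's moderated test, fitted over all 21740 probes with Benjamini-Hochberg adjustment at 0.05, 1206 members (25.1%) were called above the array median. The share over the whole array was 27.1%, so the members lay near that background. On the earlier plates it was 34.6%. All 689 upper members were among the calls, as were all 3524 upper probes of the array. The rule and the test use the same paired values, so this is no separate evidence for the upper probes. The other 517 calls among the members were intermediate probes with a median level of 0.93 units. Of these, 236 (45.6%) sat directly beside an upper probe. Below the median 73 members were called (1.52%), against 74 of the earlier probes (1.54%) and 4.81% of the array. These numbers change strongly with the scaling. A level of -1 unit or lower in both replicates was found for 1 member.

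The highest member by mean was TB66D01, with levels of 4.26 and 3.30 units (mean 3.78, SD 0.67, n = 2, adjusted p = 0.000313 by limma). It lay inside a run of 11 upper probes. Its neighbours were lower but also high, with 3.72 and 2.52 units before it and 3.42 and 2.89 after it. TB55F02 was next with 4.06 and 3.30 units (mean 3.68, SD 0.53, n = 2, adjusted p = 0.000313 by limma), inside a run of 10. Both peaks therefore stood on broad shoulders in both replicates. The lowest members stood below their neighbours. TB81A05 had -1.50 and -1.20 units (limma adjusted p = 0.00190), with -0.83 and -0.23 before it and -0.51 and -0.43 after it. TB84G02 had -1.42 and -0.63 units (limma adjusted p = 0.0174), with neighbours between -0.53 and -0.28 units.

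The second question was how the mark was spread over the plates. The median plate from 50 on held 12 upper probes (12.5%), with quartiles of 7.55 and 18.8%. On the earlier plates the median was 19.3%, with quartiles of 15.6 and 24.7%. No member plate exceeded 50%, whereas 4 of the earlier plates did. The fullest member plate was TB 66 with 35 upper probes (36.5%), followed by TB 51 with 33, TB 77 with 32, and TB 85 and TB 91 with 30 each. These 5 plates held 160 upper probes, 23.2% of those of the members. At the other end 8 member plates had under 5% upper probes, against 4 of the earlier plates.

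**Figure D1:**
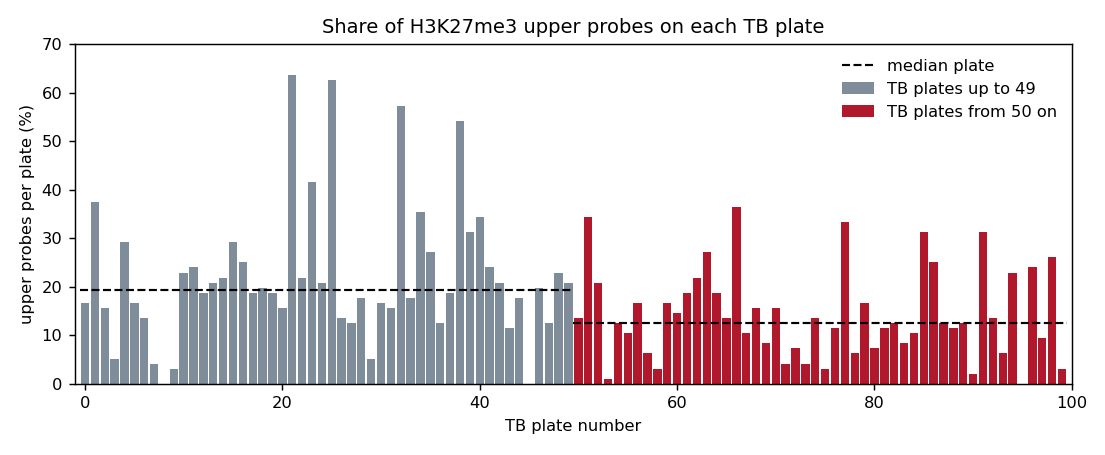
Percentage of upper probes (vertical axis) on each TB plate (horizontal axis, plate number), for plates up to 49 (grey) and from 50 on (red), with dashed lines at the median plate of each set. The red bars reach at most 36.5% and have a median of 12.5%, the grey bars reach 63.5% and have a median of 19.3%.

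Of the earlier plates 2 had no upper probe. Among the member plates only TB 95 had none. Its 96 values in replicate I ranged from -0.87 to 1.44 units, with a median of -0.24. Those in replicate II ranged from -0.69 to 0.66 units, with a median of -0.21. A single probe of the plate reached 1 unit in replicate I and 0 did in replicate II, and limma called 2 above the median. The plate was thus low in both replicates.

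In blocks of 10 plates the upper share of the members was 13.6% on plates 50 to 59, 18.5% on 60 to 69, 11.6% on 70 to 79, 14.3% on 80 to 89 and 13.9% on 90 to 99. Plates 60 to 69 stood highest in both replicates, with 29.4% and 19.5% of probes at 1 unit or more. Their 57 runs were the most of any member block, but with a mean of 3.12 probes they were the shortest. Among the earlier blocks, plates 00 to 09 had 14.2% and plates 40 to 49 had 18.4%, both inside the range of the member blocks. Plates 10 to 19, 20 to 29 and 30 to 39 had 22.0%, 27.5% and 28.6%, all above it. The lower share of the members is therefore mainly a contrast with plates 10 to 39.

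Height differed little between 4 of the 5 member blocks. Upper probes averaged 2.44 and 1.85 units on plates 50 to 59, and 2.48 and 1.81 on 60 to 69. They averaged 2.51 and 1.83 units on plates 70 to 79, and 2.40 and 1.77 on 90 to 99. On plates 80 to 89 they averaged 2.16 and 1.67 units. That block was the lowest of the 10 TB blocks in both replicates, the others having at least 2.38 and 1.74 units. It was singled out after the values were seen.

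The third question was how upper probes were grouped. Of the 689 upper members, 489 (71.0%) had an upper probe in the following well, while 4.87% of the other members did. The upper members formed 200 runs, that is unbroken sets of wells, whose length had a median of 2.5 probes, a mean of 3.44 and an SD over runs of 2.88. The earlier plates held 244 runs, with a median of 3 probes, a mean of 4.36 and an SD of 5.31. The members thus had fewer runs, 41.7 per 1000 probes against 50.8, and each run was on average shorter. By blocks of 10 plates, the mean run length of the members ranged from 3.12 to 3.94 probes. Plates 00 to 09, 10 to 19 and 40 to 49 lay inside that range, with 3.78, 3.77 and 3.85 probes. Plates 20 to 29 and 30 to 39 lay above it, with 4.89 and 5.19. The shorter mean is therefore mainly a contrast with plates 20 to 39. With each replicate alone the mean run lengths were 4.25 and 3.15 probes among the members, and 5.07 and 4.12 on the earlier plates. No run crossed from plate 49 to plate 50.

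The contrast between the sets of plates was strongest for long runs. Single upper probes made up 55 of the member runs and 63 of the earlier ones. Runs of 2 to 4 probes numbered 93 and 116, and runs of 5 to 9 numbered 41 and 44. Runs of 10 or more numbered 11 and 21. The longest class carried most of the difference in probes. Runs of 10 or more held 27.3 upper probes per 1000 members but 78.8 per 1000 earlier probes, while shorter runs held 116 and 143. Runs of 20 or more were 0 among the members and 5 on the earlier plates, where they held 151 upper probes. These numbers depend on the setting: they were 4 and 8 in replicate I alone, 4 and 11 at 0.5 units, and 0 and 0 at 1.5 units. With the 5 left out the earlier mean was 3.82 probes, still above the 3.44 of the members.

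**Figure D2:**
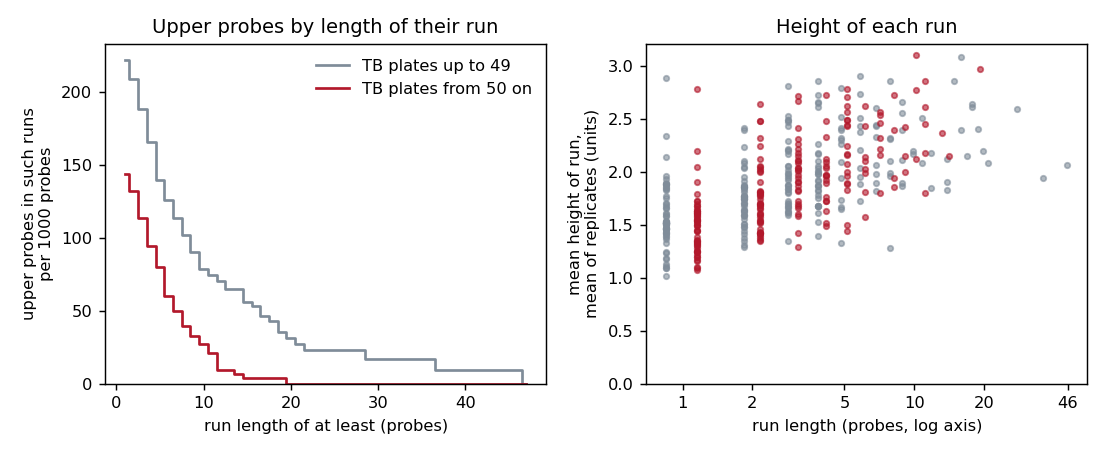
Left, upper probes lying in runs of at least a given length (horizontal axis, probes), per 1000 probes of plates up to 49 (grey) or from 50 on (red). Right, the mean height of each run over both replicates (vertical axis, units) against its length (log axis), 1 point per run; the red line ends at 19 probes and the grey one at 46, and the heights of single runs in both sets overlap.

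The longest member run covered 19 probes of plate TB 66, from row D well 6 to row E well 12, with means of 3.40 and 2.55 units. The longest member run had 28 probes after quantile normalization, and 35 with mode centring or in replicate I alone. A run of 11 probes ended just before it, at row D well 4, and averaged 3.29 and 2.43 units. The well between them had 1.04 and 0.49 units, far below both of its flanks. Joined across that well, the region spanned 31 probes with means of 3.29 and 2.44 units.

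**Figure D3:**
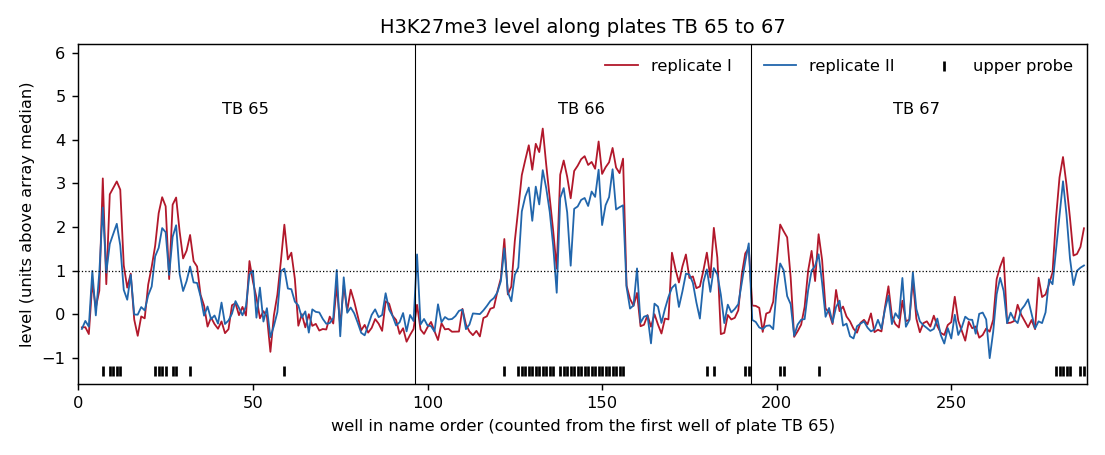
Level of every probe of plates TB 65 to 67 in name order (horizontal axis, wells) in replicate I (red) and replicate II (blue), in units above the array median, with ticks under the upper probes and a dotted line at 1 unit. The tall block on plate TB 66 holds the runs of 11 and 19 probes and the single lower well between them, and both replicates trace its outline.

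The second longest run had 14 probes across plates TB 91 and 92, with means of 2.45 and 1.85 units. The third had 13 probes across plates TB 76 and 77, with 2.67 and 2.06 units. Among the runs of 11, the highest by mean were the one on plate TB 66 and one on plate TB 94, the latter with 2.95 and 2.29 units. By height, the first run of at least 3 probes was one of 10 on plate TB 55, with 3.44 and 2.77 units (mean 3.11 ± 0.47, SD between replicates, n = 2). After it came both runs of plate TB 66. A run of 5 on plate TB 52 had 3.09 and 2.48 units, and one of 10 on plate TB 61 had 3.20 and 2.36 units. Height and length did not go strictly together, as the run of 5 on plate TB 52 stood above the runs of 14 and 13.

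Where runs were joined across single probes below the rule, the widest span among the members was 35 probes, from row G well 3 of plate TB 85 to row B well 1 of plate TB 86. It averaged 2.22 and 1.73 units. It held 31 upper probes and 4 others, and these 4 lay between 1.12 and 2.23 units in replicate I and between 0.86 and 0.95 in replicate II. In replicate I it was thus unbroken, and with 35 probes it was the longest run of that replicate among the members. Its breaks in replicate II were shallow, unlike the dip on plate TB 66. In the first well outside the span the values dropped, to 0.09 and -0.17 units before it and to 0.39 and 0.29 after it. On the side after the span they rose again, to 0.48 and 0.56 units at 2 wells and 0.81 and 1.18 at 3 wells.

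Longer runs stood higher. So that height did not share the noise of the call, runs were also defined in a single replicate and read in the other. Runs defined in replicate I averaged 0.83 units in replicate II for 71 single probes and 1.04 for 104 runs of 2 to 4. They averaged 1.48 for 51 runs of 5 to 9 and 1.67 for 23 runs of 10 or more. Runs defined in replicate II averaged 1.28, 2.14, 2.47 and 2.79 units in replicate I over 87, 93, 42 and 11 runs of these classes. On the earlier plates the longest class averaged 1.63 units in replicate II and 2.58 in replicate I. Single member runs of the longest class spread with an SD of 0.37 units when read in replicate II and 0.46 in replicate I. Neighbouring values are alike, which by itself makes long runs above a minimum higher.

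Averaged over runs, the edges were steep and the inner probes nearly level. Single runs could still have a peak. In the run of 14 on plates TB 91 and 92 it reached 3.79 and 3.16 units, over means of 2.45 and 1.85. In the 52 member runs of 5 or more probes, the outermost probes averaged 2.25 and 1.60 units. The next probes inward averaged 2.73 and 2.09 units, and the probes further in averaged 2.76 and 2.15. The first probe outside averaged 1.04 and 0.57 units. At the second well outside the mean was 0.73 and 0.53 units, and at 12 wells it was 0.45 and 0.33, with neighbouring runs included. In the 65 earlier runs of this length the outermost probes averaged 2.16 and 1.52 units and the first probes outside 1.07 and 0.54. The rule itself places the edge, so some step at that point follows from it.

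**Figure D4:**
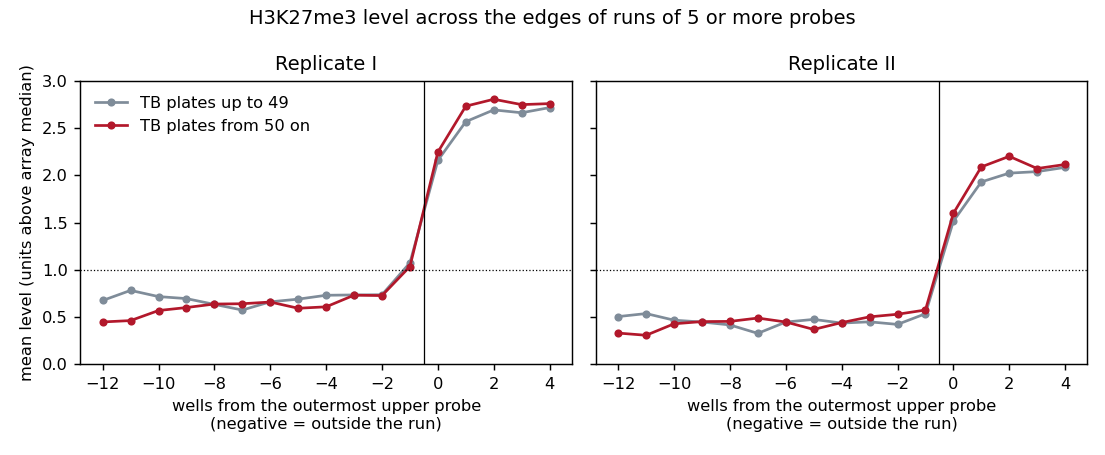
Mean level (vertical axis, units above the array median) by distance in wells from the outermost probe of a run of 5 or more (horizontal axis, negative outside the run, both ends pooled), in replicate I (left) and replicate II (right), for plates up to 49 (grey) and from 50 on (red). In both sets the level passes from inside to outside within 1 to 2 wells.

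The fourth question was how runs were spaced. The 199 gaps between member runs had a median of 12 probes, with a mean of 20.3. On the earlier plates the median gap was 8 and the mean 15.3 probes. Gaps of 1 probe numbered 28 among the members. The probes in them were seldom low: 24 of 28 reached 1 unit in 1 of the replicates, 0 lay below 0.5 units in both, and their medians were 1.37 and 0.86 units. At the other end 21 gaps of 50 or more probes held 1673 members, 40.7% of those outside the upper group. The 13 gaps of this size on the earlier plates held 991 probes, or 26.5%. Fewer runs over a like number of probes by themselves leave longer gaps.

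The longest stretch of members free of upper probes had 126 probes, from plate TB 94 to plate TB 96, and includes all of plate TB 95. Its medians were -0.25 and -0.18 units. The next covered 116 probes of plates TB 52 and 53, then 113 probes each of plates TB 70 and 71 and of plates TB 73 and 74. The fifth covered 112 probes of plates TB 80 and 81. In replicate I between 0 and 8 probes of each of these 5 stretches reached 1 unit, and in replicate II 0 or 1 did. The stretch on plates TB 73 and 74 had 0 in both, with medians of -0.23 and -0.19 units. On the earlier plates the longest such stretch had 165 probes, from plate TB 07 to TB 09.

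The last question was the level of the members outside the upper group. Their medians were -0.10 and -0.04 units, and those of the earlier plates were -0.04 and -0.03. The differences, members minus earlier plates, were -0.0624 and -0.0053 units, below 0 in both replicates but of unlike size. Grouped by distance to the nearest upper probe, as given below, the members were not the lower set throughout. Over all probes, upper ones included, the medians were -0.01 and 0.03 units for the members and 0.22 and 0.13 units for the earlier plates, differences of -0.232 and -0.0913 units. The most frequent level, the mode of all members, was -0.22 and -0.12 units, and on the earlier plates it was -0.21 and -0.14. The sets were further apart in the upper part of the range. The 75th percentile was 0.81 units against 1.41 on the earlier plates in replicate I, and 0.54 against 0.90 in replicate II.

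Outside the upper group, the level depended on the distance to the nearest upper probe. The 372 members beside an upper probe had medians of 1.01 and 0.61 units. At 2 wells the medians were 0.22 and 0.14 units, and at 3 wells -0.05 and 0.003. From 4 to 6 wells they were -0.17 and -0.08. Beyond that there was no steady fall: they were higher from 7 to 12 wells, at -0.13 and -0.04, then -0.17 and -0.10 from 13 to 24 wells, and at 25 or more wells -0.20 and -0.13. The earlier plates had 0.41 and 0.21 units at 2 wells, above the members. They had -0.16 and -0.12 from 7 to 12 wells and -0.25 and -0.18 at 25 or more, below the members in both replicates. From 4 to 6 wells they had -0.12 and -0.09, and from 13 to 24 wells -0.14 and -0.13. There they lay above the members in replicate I and below them in replicate II. Members lay farther from upper probes, with 17.1% of those outside the group at 25 or more wells against 9.85% on the earlier plates. Fewer upper probes in fewer runs by themselves leave larger distances, so this is no separate trait of the members. Probes beside a run include many that narrowly missed the rule, so a raised level there partly follows from it.

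**Figure D5:**
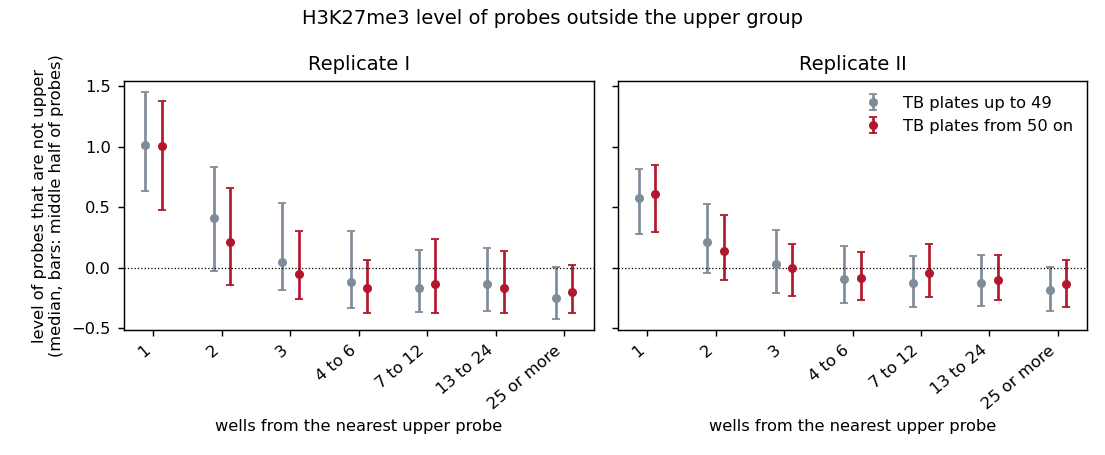
Level of probes outside the upper group (vertical axis, units above the array median) by distance in wells to the nearest upper probe (horizontal axis), in replicate I (left) and replicate II (right), for plates up to 49 (grey) and from 50 on (red). Points are medians and bars span the quartiles of the probes, not an error over replicates; the member medians fall from 1.01 and 0.61 units beside an upper probe to below 0 at 4 to 6 wells, with no steady fall beyond.

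More members passed in replicate I than in replicate II, with 1058 and 735 probes at 1 unit or more. Of the list of replicate II, 93.7% was also in that of replicate I, and 65.1% of the list of replicate I was in that of replicate II. The 369 members that passed in replicate I alone had medians of 1.30 and 0.72 units, so they were raised in both. Another 46 members passed in replicate II alone. At the border of the rule, the lower of the paired values was less than 0.1 units above 1 for 66 members and at most 0.1 units below 1 for 83. The nearest inside were at 1.0008, 1.0035 and 1.0042 units, and the nearest outside were at 0.99998, 0.9993 and 0.9993.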

How the data were processed

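H3K27me3 immunoprecipitate and input DNA were compared on 4 arrays with 2 colours. The deposited value of a probe is a score by the authors that behaves as a log ratio. How it was normalized and background-corrected, and its base and direction, is not given in the labels or the file. The deposited medians were -0.94 (replicate I) and -1.20 (replicate II). The table lists 21800 features, 21740 with a value; within a dye exchange values differed by at most 0. Signal over background is not used here, and the number of arrays limits the precision.

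Dye-exchanged arrays were averaged, and the median of each replicate was subtracted. Probes were ordered by plate, row and well (12 per row). A missing well or a probe below the rule ends a run; a plate boundary does not. Probes were tested with lmFit and eBayes of limma, intercept only, two-sided, with 1 residual degree of freedom; the step was checked on simulated data. The members, rules and lists were chosen with earlier results of these data known. Named were the highest 2 and lowest 2 members past the test, the 5 longest and 5 highest runs (ties by mean), the 5 longest stretches free of upper probes, and the fullest 5 and the empty plates. Other plates, blocks and spans were singled out after their values were seen. Alternatives were other centrings, scalings, sizes, run rules and limma settings. Tools were limma 3.58.1 (R 4.3.3), numpy 2.4.6, scipy 1.17.1, pandas 2.3.3 and matplotlib 3.10.9 (Python 3.11.15).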

Additional observations from a re-analysis of the deposited data

How the results depend on the processing

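The difference in the share of upper probes kept its direction, lower from plate 50 on, in every setting of centring, scaling and size run. Left uncentred, the -7.79 percentage points became -1.67; they were -9.12 at 0.5 units and -4.94 at 1.5 units, and ranged from -9.20 to -7.60 with 1 replicate alone. The 689 upper members numbered 162 uncentred, 1141 at 0.5 units, 422 at 1.5 units, ranged from 735 to 1058 with 1 replicate alone, and numbered 1 with the sign turned, a setting chosen after seeing the data. Mode centring, centring on the TB probes, equal spread, quantile normalization and the mean of the replicates gave 640 to 889. The lower median outside the upper group (-0.0338 units, mean of the replicates) was -0.133 without centring, -0.00576 at 0.5 units, -0.0721 at 1.5 units, -0.0148 with the rule on the mean, and -0.0296 to -0.00553 with 1 replicate alone, so its size is not settled. The direction of this pooled difference did not hold at every distance from an upper probe. The 1206 calls above numbered 481 without centring and 865 to 1523 otherwise. The 73 calls below numbered 3371 without centring, 3 with mode centring, 216 with TB centring, 435 with equal spread, 510 with quantile normalization, 765 with the trended and robust prior, 5 at adjusted p under 0.01 and 2 with a minimum of 1 unit. Mean run length was shorter among the members in every setting of centring, scaling and size, from 2.10 against 2.47 probes without centring to 4.25 against 5.07 in replicate I alone. Runs of 20 or more, 0 among the members and 5 on the earlier plates, numbered 1 and 7 with mode centring or quantile normalization, 1 and 5 with equal spread, 2 and 7 on the mean, 4 and 11 at 0.5 units, 4 and 8 in replicate I alone, and 0 and 0 uncentred or at 1.5 units. The longest member run had 8 to 35 probes and that of the earlier plates 13 to 54; the closest pair was 15 and 16 at 1.5 units. The longest stretch free of upper probes was not stably the shorter one among the members: it had 112 against 103 probes at 0.5 units, 126 against 106 in replicate II and 113 against 111 in replicate I. Changes under other centrings, rules of size and the turned sign follow from their construction; the cause of the others was not tested. The limma fit cannot be tested with 1 replicate left out, as no residual degree of freedom remains. No paired analysis was possible because all arrays form 1 group.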

Other observations

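Likeness between neighbouring members reached over fewer wells than on the earlier TB plates. The runs were called from the same values, so this is no separate evidence for their shorter mean length. To share no noise of a single array, a probe's value in 1 replicate was set against its neighbour's in the other. Over the members r was 0.775 at 1 well, 0.459 at 3 wells, 0.273 at 5 wells, 0.114 at 12 wells and 0.032 at 24 wells. On plates 00 to 49 it was 0.812, 0.546, 0.385, 0.165 and 0.101 at these distances. These are descriptions over 4774 to 4799 pairs of probes that share arrays and neighbours, and no test of the difference was made. Any bias common to adjacent wells and to both replicates would remain in them.

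By position on the plate, the share of upper members ranged from 10 to 19.5% over the 8 rows and from 12 to 18.5% over the 12 wells of a row. On plates 00 to 49 the ranges were 17 to 30.2% and 19.8 to 25%. A row holds 12 neighbouring wells, so a long run can add many probes to the share of a single row. The cause of the differences between rows was not tested. Among the 55 single upper members, 2 had all neighbouring values below 0 in both replicates.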
